A study of Mus musculus with 6 samples.

Results

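The small subunit of the cytosolic ribosome is built on a single ribosomal RNA and a set of proteins, most of which have a gene symbol made of Rps and a number. In dorsal root ganglia of mouse embryos, 30 such genes were found among the 17971 genes measured, by taking the symbol Rpsa and every symbol of Rps followed by digits and at most 1 further letter (a or x). Kinases of S6 and paralogs with a symbol ending in l were left out. All 30 had enough counts to be tested, as did 14338 genes in all. The 26 described here lie on 13 chromosomes, with 6 on chromosome 7 and 4 on chromosome 17, and every count and median of members that follows is over these 26.

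The ganglia, clusters of sensory neurons and glia beside the spinal cord, were taken from male embryos at stage E13.5. Of the 6 libraries, 3 are labelled cKO and come from the genotype Wnt1-cre+/-;Ybx1fl/fl, in which Cre recombinase driven by Wnt1 deletes floxed Ybx1 in the neural crest, the source of the neurons and glia of these ganglia. The other 3, labelled Ctrl, come from Ybx1fl/fl littermates, so both groups carry the floxed allele and only cKO carries Cre. Loss of Ybx1 and an effect of Cre itself cannot be told apart in this design, and cells outside the neural crest lineage would keep the gene. The study set out to find mRNAs that depend on Ybx1, which encodes an RNA-binding protein of the cold-shock domain family. In the Ctrl libraries Ybx1 stood at 927, 809 and 817 normalised CPM (counts scaled to a common library size), and in the cKO libraries at 137, 122 and 108. Each library therefore went with its label (log2 fold change -2.80, SE 0.10, edgeR adjusted p 8.42e-08).

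Small-subunit proteins fold the ribosomal RNA into a head, a body and a platform, which between them hold the decoding centre and the path of the mRNA. Their mRNAs are abundant in growing cells, and most begin with a C followed by a run of pyrimidines, the terminal oligopyrimidine tract, through which mTORC1 signalling and the protein Larp1 control their translation together. Loss of a single copy of one of several of these genes causes Diamond-Blackfan anaemia in people, a disease of red cell precursors.

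The start of transcription, where the pyrimidine tract would lie, is shown for 10 members, since the run of pyrimidines is set against the differences between members further on. RefSeq promoters (GRCm38.p6) were found for 22 of the 26 genes, and Rps14, Rps20, Rps27a and Rps29 have no entry. Each line runs 5′ to 3′ on the strand of the gene, from 20 bases before the annotated start to 20 bases from it onwards. Capitals mark a C followed by C or T, in a run of at least 8 bases, and sequences without capitals hold no such run. The first 4 genes had the lowest log2 fold changes among genes with a single entry, and the last 4 the highest. Rps10 has the longest run shown, and Rps6 encodes the target of the S6 kinases.
Rpsa, chr9:120127746-120127785, plus strand: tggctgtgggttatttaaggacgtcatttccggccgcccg
Rps2, chr17:24720043-24720082, plus strand: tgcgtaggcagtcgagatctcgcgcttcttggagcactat
Rps12, chr10:23787190-23787229, minus strand: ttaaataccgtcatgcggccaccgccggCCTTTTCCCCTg
Rps15, chr10:80292411-80292450, plus strand: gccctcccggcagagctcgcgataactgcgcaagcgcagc
Rps10, chr17:27635225-27635264, minus strand: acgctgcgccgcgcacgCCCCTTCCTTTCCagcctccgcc
Rps6, chr4:86857348-86857387, minus strand: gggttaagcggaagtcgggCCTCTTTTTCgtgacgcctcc
Rps25, chr9:44407694-44407733, plus strand: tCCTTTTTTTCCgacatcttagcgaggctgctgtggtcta
Rps26, chr10:128626487-128626526, minus strand: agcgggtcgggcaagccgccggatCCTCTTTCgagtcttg
Rps28, chr17:33824543-33824582, minus strand: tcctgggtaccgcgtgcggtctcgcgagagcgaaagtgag
Rps13, chr7:116334171-116334210, minus strand: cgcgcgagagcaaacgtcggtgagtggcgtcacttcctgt

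Annotated starts can differ from the starts used in these ganglia, and for Rps2 and Rps12 the entry's start lies inside the gene as annotated. The window and the minimum run were chosen after the sequences had been seen, so the counts that follow are a description.

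As a whole, the small-subunit genes stood slightly lower in cKO, with groups that overlap. All 30 together took 1.53%, 1.29% and 1.34% of all counts in Ctrl replicates 1, 2 and 3, and 1.43%, 1.16% and 1.17% in the cKO replicates. The highest cKO library was above 2 of the 3 Ctrl libraries, and the means were 1.39% ± 0.127 in Ctrl and 1.25% ± 0.153 in cKO (SD, n = 3 libraries each). Replicate 1 was the highest library of each group, for the sum and for most single genes (24 of 26 in Ctrl and 25 of 26 in cKO). Within each replicate number cKO was below Ctrl, by -0.12, -0.16 and -0.21 on the log2 scale of the summed CPM of the 26. The sample labels do not name litters. Since controls are littermates and same-numbered samples share the first part of their code, a replicate number is taken as a litter from here on.

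Among the members, 25 of 26 had a negative log2 fold change, with a median of -0.11 against 0.00 over all genes tested. Comparing the groups without regard to litter, edgeR called none of the 26 at an adjusted p under 0.05, where 0.37% of all genes tested were called lower and 0.112% higher. At an unadjusted p under 0.05, 6 members were lower (6.1% of all genes were). The DESeq2 test called Rpsa lower (adjusted p 0.0136; 0.9% of all genes were called lower) and limma-voom none. The litter, as taken from the replicate number, was then entered as a block, so that each cKO library was set against the same-numbered Ctrl library. With this block, 8 members were called lower (3.56% of all genes) and none higher (1.76% of all genes). These were Rpsa, Rps2, Rps12, Rps15, Rps19, Rps4x, Rps3 and Rps16. In bulk RNA of a ganglion, fewer cells rich in these mRNAs and less of them per cell cannot be told apart.

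Litters differed in how many members were lower and by how much. In litter 1, 17 members were lower in cKO with a median log2 difference of -0.05. Litter 2 had 22 lower and a median of -0.12, and litter 3 had 25 lower and a median of -0.21. Rpsa was the lowest of the 26 in litter 1 (-0.39), Rpsa and Rps19 in litter 2 (both -0.36), and Rps19 in litter 3 (-0.44). The highest was Rps28 in litter 1 (0.21), Rps26 in litter 2 (0.03) and Rps24 in litter 3 (0.07). A total of 16 members were lower in all 3 litters (20.3% of all genes tested) and 1, Rps24, was higher in all 3 (19.5% of all genes). In normalised CPM, groups did not overlap for 3 members, all lower in cKO, namely Rpsa, Rps2 and Rps27 (8.77% of all genes). No member had all cKO libraries above all Ctrl libraries (7.83% of all genes).

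**Figure D1:**
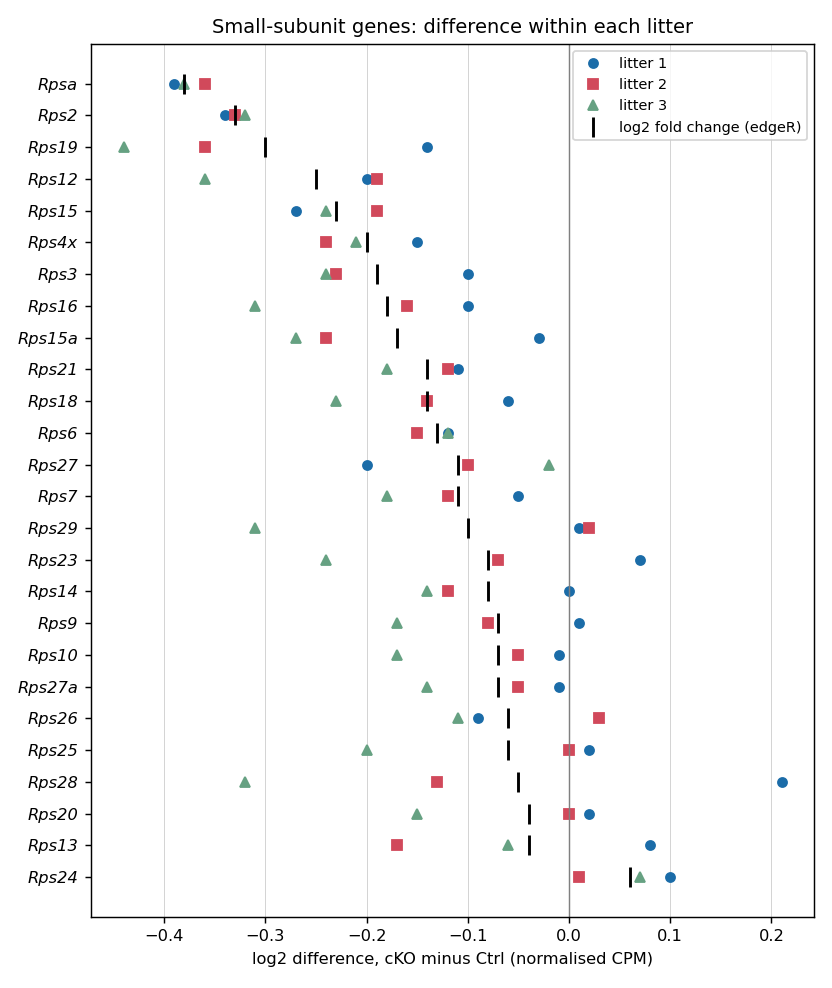
Log2 difference between the cKO and Ctrl library of each litter (horizontal axis, normalised CPM) for 26 small-subunit genes, ordered by their log2 fold change in edgeR (black bars). The points of Rpsa and Rps2 sit close together and far left in all 3 litters, while those of Rps28 run from -0.32 to 0.21.

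Proteins of the head come first. Rps19, the member mutated most often in Diamond-Blackfan anaemia, was at 190, 159 and 167 normalised CPM in Ctrl and 172, 124 and 123 in cKO. Litter 1 differed least (-0.14), litters 2 and 3 more (-0.36 and -0.44), and the groups overlapped because cKO replicate 1 was above Ctrl replicates 2 and 3. Its log2 fold change was -0.30 (SE 0.12), with an edgeR adjusted p of 0.402, of 0.00555 with the block, and of 0.0679 with the block and without litter 2. Without cKO replicate 1 alone and with no block, Rps19 passed the test (adjusted p 0.0119), as did Rpsa and Rps2, and no other member did (0.45% of all genes were called lower).

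Rps12 encodes a protein of the beak of the head. Its Ctrl libraries held 441, 367 and 429 CPM and its cKO libraries 385, 321 and 333, an overlap by cKO replicate 1 (log2 fold change -0.25, SE 0.09, edgeR adjusted p 0.346, with the block 0.00631). Rps15, whose tail reaches towards the decoding site, was at 589, 466 and 489 in Ctrl and at 490, 408 and 415 in cKO. Here too cKO replicate 1 was above Ctrl replicates 2 and 3, and the fold change was -0.23 (SE 0.10, edgeR adjusted p 0.451, with the block 0.00587). Rps12 kept its blocked call without any 1 litter, and Rps15 lost it without litter 2 (adjusted p 0.0658).

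The remaining head genes called with the block were Rps3 and Rps16. Rps3 lines the entry of the mRNA channel and has a separate role in DNA repair. It stood at 514, 471 and 494 CPM in Ctrl and 478, 401 and 420 in cKO, so only cKO replicate 1 reached into the Ctrl range (log2 fold change -0.19, SE 0.08, edgeR adjusted p 0.451, with the block 0.024). Rps16, whose tail touches the tRNA in the P site, held 366, 299 and 317 CPM in Ctrl and 342, 267 and 255 in cKO (-0.18, SE 0.11, adjusted p 0.637, with the block 0.0355). The blocked calls of Rps3 and Rps16 were lost without litter 2 (adjusted p 0.326 and 0.221) and without litter 3 (0.0735 and 0.189).

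No other head gene passed either test. Rps18, Rps29, Rps10, Rps27a, Rps25, Rps28 and Rps20 had log2 fold changes between -0.14 and -0.04. Rps10 and Rps20 are marked with ubiquitin when ribosomes collide, and Rps27a is made as a fusion with ubiquitin. Rps28, the second shortest coding sequence of the set, varied most between litters. It was at 99.9, 85.7 and 92.5 CPM in Ctrl and at 115, 78.5 and 74.3 in cKO, so cKO replicate 1 was the highest of all 6 libraries and the other cKO libraries were the lowest. Without litter 1 Rps28 was called lower with the block (edgeR adjusted p 0.01), as were Rps15a, Rps18, Rps23 and Rps7 beside the 8.

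Rps20 held 273, 229 and 247 CPM in Ctrl and 276, 229 and 223 in cKO, so the libraries interleave, and its log2 fold change of -0.04 (SE 0.10) was the highest of the head genes described. Over the 12 head genes described, all negative, the median log2 fold change was -0.12. With the block, 5 of the 12 were called lower (3.56% of all genes). In normalised CPM the groups overlapped for each of the 12 (8.77% of all genes were lower without overlap).

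Among the proteins of the body and platform, Rpsa and Rps2 stood lowest. Rpsa (gene identifier 16785, GRCm38 chromosome 9, 120127766 to 120132369), first known as a laminin receptor and placed at the cleft between head and body, was the member with the highest CPM. Its Ctrl libraries held 1592, 1305 and 1314 CPM and its cKO libraries 1212, 1015 and 1010, with no overlap (1404 ± 163 and 1079 ± 115, SD, n = 3). The log2 fold change was -0.38 (SE 0.10), with an edgeR adjusted p of 0.154 and, with the block, of 4.8e-05. The difference was nearly the same in the 3 litters, at -0.39, -0.36 and -0.38.

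Rps2 (gene identifier 16898, chromosome 17, 24718121 to 24721927), at the entry of the mRNA channel, was close behind. Its values were 1303, 1062 and 1080 CPM in Ctrl and 1030, 842 and 865 in cKO, again with no overlap. The log2 fold change was -0.33 (SE 0.10, edgeR adjusted p 0.234, with the block 0.000232), and the litters gave -0.34, -0.33 and -0.32. Rpsa and Rps2 kept their blocked calls without any 1 litter, as Rps12 did, so these 3 of the 8 did not depend on a single litter.

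Rps4x, encoded on the X chromosome, was at 856, 724 and 691 CPM in Ctrl and at 770, 615 and 597 in cKO. As in the head genes, cKO replicate 1 was within the Ctrl range, and cKO was lower in each litter (log2 fold change -0.20, SE 0.11, edgeR adjusted p 0.594, with the block 0.0123). Rps4x lost the blocked call without litter 2 (adjusted p 0.241).

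**Figure D2:**
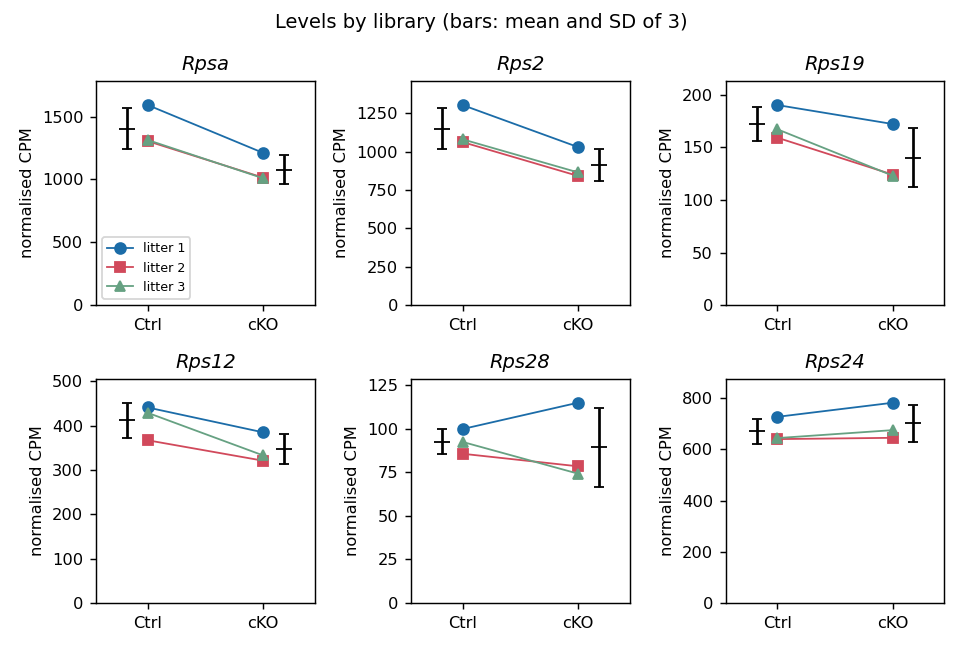
Normalised CPM (vertical axes, from 0) of 6 small-subunit genes in the Ctrl and cKO library of each litter, joined by lines, with mean and SD of 3 libraries beside them. All lines of Rpsa, Rps2, Rps19 and Rps12 run down, those of Rps24 run level or up, those of Rps28 cross, and litter 1 is the highest library of each group.

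The other body and platform genes passed neither test. Rps6, the phosphorylation target of the S6 kinases, was at 984, 818 and 845 CPM in Ctrl and 905, 735 and 779 in cKO, lower in each litter (-0.12, -0.15 and -0.12), with an edgeR adjusted p of 0.0837 with the block. Rps15a came close as well (log2 fold change -0.17, with the block 0.0602). Rps27, a zinc-binding protein of the platform, was the remaining member without overlap, at 220, 203 and 205 CPM in Ctrl and 191, 189 and 202 in cKO. Its log2 fold change was -0.11 (SE 0.07) and its adjusted p with the block 0.261. Rps21, Rps7, Rps14, Rps23, Rps9, Rps26 and Rps13 had log2 fold changes between -0.14 and -0.04. Rps13, the highest of these, was at 220, 198 and 194 CPM in Ctrl and at 233, 176 and 187 in cKO, so both extremes were cKO libraries.

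Rps24 (gene identifier 20088, chromosome 14, 24490678 to 24496960), a body protein and a Diamond-Blackfan gene, had the highest fold change of the set. It was at 727, 640 and 644 CPM in Ctrl and at 782, 645 and 675 in cKO. The groups overlap, and cKO was higher in each litter, by 0.10, 0.01 and 0.07. Its log2 fold change was 0.06 (SE 0.09, edgeR adjusted p 0.873, with the block 0.484), and it was -0.02 without cKO replicate 1. Over the 14 body and platform genes described the median log2 fold change was -0.11. With the block, 3 of the 14 were called lower (3.56% of all genes). In normalised CPM 3 did not overlap (8.77% of all genes were lower without overlap).

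Since the members differ among themselves, each was also set against its own subunit, by scaling every library to its summed counts of the 30 genes. Without the block edgeR called no member (0.00697% of all genes tested were lower and 0.0279% higher on this scale, and the lowest adjusted p of the 26 was 0.393). With the block 3 members were called. Below the subunit were Rpsa (-0.20, SE 0.04, adjusted p 0.0131) and Rps2 (-0.16, SE 0.04, adjusted p 0.0256), where 0.886% of all genes were lower. Above it was Rps24 (0.23, SE 0.04, adjusted p 0.012), where 35.8% of all genes were higher, since scaling to a lower subunit total raises the values of all other genes.

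In every litter these 3 kept their sign against the subunit. Rpsa was at -0.26, -0.19 and -0.16 in litters 1, 2 and 3, Rps2 at -0.21, -0.16 and -0.10, and Rps24 at 0.23, 0.18 and 0.29. Scaling to the summed large-subunit genes in place of the small ones gave the same 3 calls with the block. All 3 calls were lost without litter 2, when none of the 26 was called. They stood without litter 1, when Rps19 was added below the subunit and Rps26 above it. They also stood without litter 3, when Rps28 was added above it. Shares of all genes were not counted in these fits. With all litters they were 0.886% lower and 35.8% higher, so a call above the subunit was common among all genes.

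**Figure D3:**
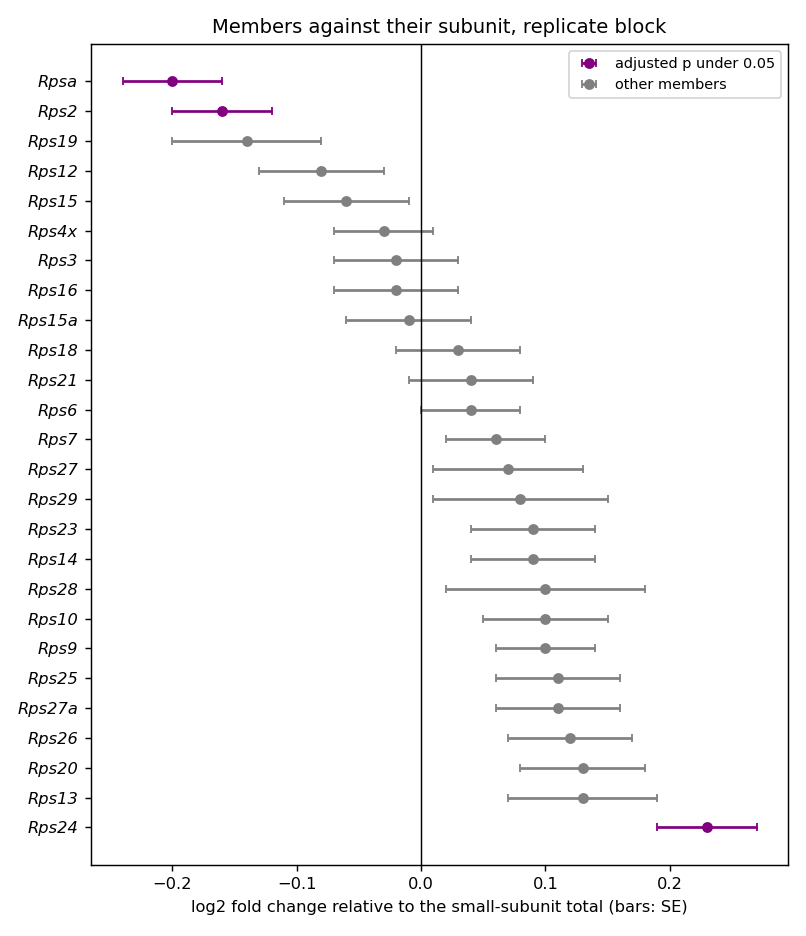
Log2 fold change of each of the 26 genes relative to the summed small-subunit counts (horizontal axis), from edgeR with the litter as a block, with bars for the SE. The 3 members called are filled in purple, Rpsa and Rps2 on the left at -0.20 and -0.16 and Rps24 on the right at 0.23.

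The same spread can be read as a ratio of 2 members within a library, for pairs chosen after their values were seen and so without a test. The ratio of Rpsa to Rps24 in CPM was 2.19, 2.04 and 2.04 in Ctrl and 1.55, 1.57 and 1.5 in cKO. That of Rps2 to Rps24 was 1.79, 1.66 and 1.68 in Ctrl and 1.32, 1.31 and 1.28 in cKO. Replicate 1, the highest library for each of these genes, was no longer set apart from its group by much in the ratios, and every cKO ratio lay below every Ctrl ratio.

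Levels between genes were compared on the deposited TPM, which divides by transcript length. Rps26, a platform protein at the exit of the mRNA, was the highest member at 10078, 8288 and 8429 TPM in Ctrl and 9331, 8539 and 8419 in cKO. Rps27 followed at 5123, 5238 and 4904 in Ctrl and 4429, 4918 and 5450 in cKO, and Rps15 at 4237, 3677 and 3742 in Ctrl and 3467, 3273 and 3363 in cKO. Rps26 was above both in every library, and Rps27 above Rps15. On this scale the groups overlapped for Rps27 and did not for Rps15, the reverse of normalised CPM. Rps19, Rps12, Rps3 and Rps21 also did not overlap in TPM, although they did in normalised CPM. Whether groups overlap thus depended on the scale for these genes. The share of all genes lower without overlap was counted in normalised CPM (8.77%) and not in TPM.

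The lowest TPM were those of Rps15a (98.8, 94 and 96.2 in Ctrl, 95.1, 80.8 and 81.7 in cKO), Rps20 (145, 132 and 141, then 144, 134 and 130) and Rps3 (541, 538 and 558, then 495, 465 and 488). These 3 do not have low counts. Their reference transcripts in GENCODE M21 are long, with 5179, 3706 and 1908 bases, although the coding sequences have 393, 360 and 732. Their place in the order of TPM may therefore depend on the transcript models used, whose part was not tested. The same holds for the top of the order, where Rps27 has a short reference transcript of 345 bases. Across the 26 genes, the log2 fold change hardly went with mean TPM (Spearman rho -0.13, n = 26 genes, as a description).

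It went more with coding length. Over the 26 genes Pearson's r was -0.55 and Spearman's rho -0.41, as a description over genes of the same 6 libraries, which are not independent replicates. For the 47 large-subunit genes r with coding length was -0.44 and rho -0.47, while with mean CPM r was -0.57 and rho -0.45. With coding length, r over 14015 genes with a reference transcript was -0.04. Among the 26, the relation was seen in litters 1 and 2 (r -0.56 and -0.60, rho -0.38 and -0.51) and hardly in litter 3 (r -0.16, rho -0.06). The 7 members with at least 500 coding bases (585 to 888) had a median log2 fold change of -0.19, with 4 called lower with the block and 2 without overlap. The 19 shorter ones (171 to 498) had a median of -0.08, with 4 called and 1 without overlap. Over all genes tested, 3.56% were called lower with the block and 8.77% were lower without overlap. Rps6, Rps7 and Rps9, all of the longer kind, were not called, while the shorter Rps12 and Rps19 were. GC content of the coding sequence went with the fold change less (Spearman rho -0.31), as did the level in CPM (-0.30), and the number of exons about as much (-0.43). The length of the whole reference transcript hardly went with it (r -0.04, rho -0.06).

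**Figure D4:**
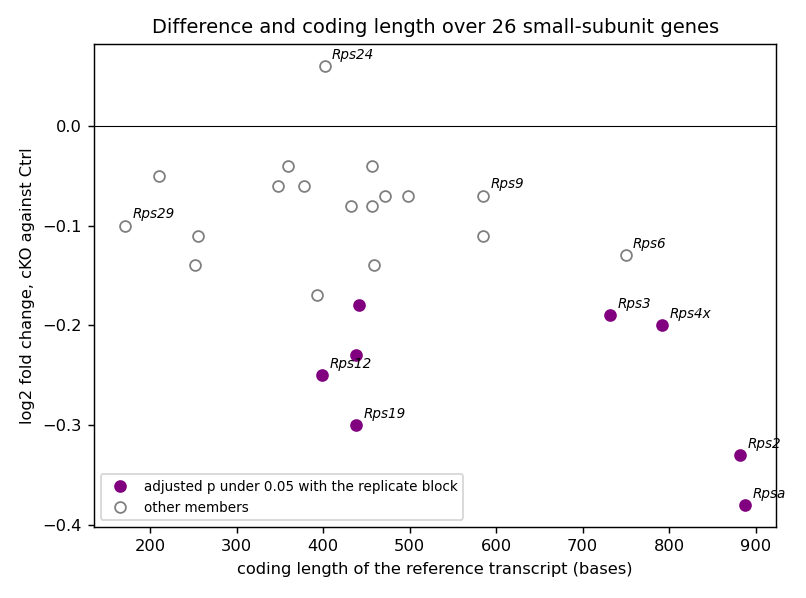
Log2 fold change between cKO and Ctrl (vertical axis) against the coding length of the reference transcript in bases (horizontal axis) for the 26 genes. Purple points are the 8 members called lower with the litter as a block, and the lowest points, Rpsa and Rps2, are also those with the longest coding sequences, of 888 and 882 bases.

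The sequences at the annotated starts, shown above, were read against these differences. A pyrimidine run of at least 8 bases opening with C was present within 20 bases of an annotated start in 10 of the 22 members with a RefSeq entry (45.5%), against 15.9% of 14082 genes and 52.9% of 34 large-subunit genes. A gene counted where any of its entries held the run. Of the 8 members called lower with the block, 1 held it, Rps12, and of the 14 not called, 9 did (64.3%). Within 40 bases the counts were 2 of 8 and 11 of 14, against 27% of all genes. Rpsa and Rps2 hold none, as the printed sequences show. The motif CCGGAA, read on both strands over the 300 bases of an entry, was in 12 of 22 members (25.1% of all genes). CCAAT, read in the same way, was in 7 of 22 (42.4% of all genes). Among the 8 called members 4 held CCGGAA and 2 CCAAT. A match or its absence says only what letters are in the window.

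Proteins of the small subunit with other symbols were read from a separate list. Rack1, a head protein and a scaffold for kinases, was at 762, 645 and 615 CPM in Ctrl and 604, 502 and 494 in cKO, without overlap (log2 fold change -0.34, SE 0.10, edgeR adjusted p 0.223, with the block 0.000306). Rps3a1 was at 809, 688 and 699 in Ctrl and 713, 577 and 593 in cKO (-0.22, SE 0.10, adjusted p 0.454, with the block 0.00607, and 0.147 with the block and without litter 2). Fau, which yields the protein S30 from a ubiquitin-like fusion, had a log2 fold change of -0.10 and did not pass either test (0.229 with the block). The paralogs Rps27l (log2 fold change 0.15, SE 0.12) and Rps27rt (-0.14, SE 0.74) passed neither. Rps27rt is nearly a copy of Rps27, and reads of the pair may have been split in counting. Their sum was 262, 227 and 222 CPM in Ctrl and 241, 206 and 212 in cKO, so the groups overlap for the sum although they do not for Rps27.

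Genes of the large subunit were read in the same way. Over the 47 large-subunit genes the median log2 fold change was -0.13, with 41 negative. With the block 12 were called lower (3.56% of all genes were). When litter 1, 2 or 3 was left out the number was 24, 3 and 6 (5.1%, 1.28% and 3.84% of all genes). The groups did not overlap for 1 of the 47 (8.77% of all genes were lower without overlap). That gene was Rplp0, which anchors the stalk of the large subunit (log2 fold change -0.48, SE 0.11, edgeR adjusted p 0.0826, with the block 5.51e-06). Rpl13 (-0.28, with the block 0.00115) and Rpl7 (-0.23, with the block 0.0042) were among those called with the block, and Rpl7 lost the call without litter 2 (0.079). Whether the small subunit differs from the large one was not tested.

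Lists of genes that build or read the small subunit had medians near 0. The 27 assembly genes tested had a median log2 fold change of 0.04. With the block 1 was called higher (1.76% of all genes), Pno1 (0.28, edgeR adjusted p 0.0164), and none lower (3.56% of all genes). Pno1 holds the platform of the precursor particle. Among 22 genes for S6 kinases, mTORC1 and control of terminal oligopyrimidine mRNAs the median was 0.00. Of these, 1 was called lower with the block (3.56% of all genes), the mTORC1 subunit gene Mlst8 (-0.26, edgeR adjusted p 0.0136). Among 28 genes for surveillance and binding of the subunit the median was 0.00. Here 1 was called lower with the block (3.56% of all genes), the initiation factor gene Eif3h (-0.18, edgeR adjusted p 0.0291). All 3 blocked calls were lost without litter 2 (adjusted p 0.17 for Pno1, 0.121 for Mlst8 and 0.218 for Eif3h), and that of Eif3h also without litter 3 (0.106).

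**Figure D5:**
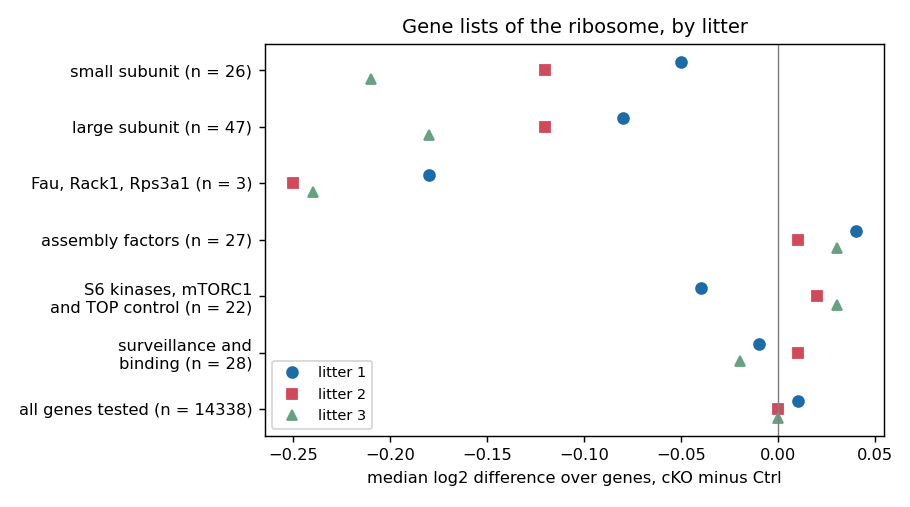
Median log2 difference between the cKO and Ctrl library of each litter (horizontal axis) for 6 gene lists of the ribosome and for all 14338 genes tested. Both subunits lie below 0 in every litter, while the lists of assembly, signalling and surveillance genes lie between -0.04 and 0.04.

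Depth was 16464264 to 17446385 estimated counts per library. Both libraries of litter 1 stood apart, with the highest small-subunit share in each group and the highest FPKM sums (590156 and 614728, against at most 551964 elsewhere). The labelled tissue was seen in its markers, since 10 neuron genes summed to 13352 to 14094 CPM in every library. Of these 10, 6 had a negative log2 fold change and 4 a positive one, the highest at 0.08. Their sum differed by -0.08, 0.02 and 0.04 on the log2 scale in litters 1, 2 and 3. The groups did not overlap for 2, Stmn2 (log2 fold change -0.19) and Isl1 (-0.22), where 8.77% of all genes were lower without overlap. These 2 were called lower with the block (edgeR adjusted p 0.00858 and 0.00833, 3.56% of all genes) and not without litter 2 (0.0901 and 0.148). Markers of erythroid cells summed to 4537, 3125 and 4627 CPM in Ctrl and to 10711, 2608 and 4242 in cKO, and none of the 10 was at 0 in any library. The erythroid sum was thus highest in cKO replicate 1, and litter 1 had the smallest median difference of the small-subunit genes. The 10 markers of Schwann cells and satellite glia summed to 1560 to 1664 CPM in Ctrl and 1692 to 1837 in cKO. All 10 had a positive log2 fold change, and 7 were higher in all 3 litters (19.5% of all genes). The groups did not overlap for 4, all higher in cKO (7.83% of all genes). With the block, 5 of the 10 were called higher (1.76% of all genes), of which Mbp and Cdh19 stood without litter 2 (edgeR adjusted p 0.0335 and 0.0145). Macrophage markers ranged from 113 to 132 in Ctrl and from 130 to 193 in cKO. All 10 had a positive log2 fold change, although 6 of the 10 were lower in litter 3. With the block 1 was called higher, C1qb (edgeR adjusted p 0.0133, 1.76% of all genes). C1qb and Csf1r were higher without overlap (7.83% of all genes). Markers of dividing cells ranged from 485 to 531 in Ctrl and from 510 to 552 in cKO, and none of the 8 was called with the block. Endothelial markers lay between 371 and 420 CPM and those of mesenchyme between 2199 and 2621 over all 6 libraries, and those of skeletal muscle between 7.01 and 11.4. The part of these cells in the small-subunit differences was not tested. Leaving out litter 1, and with it the erythroid-rich library, the number of members called lower was 11 without the block (3.13% of all genes) and 13 with it (5.1%), and the 13 included all 8. Without litter 2 edgeR called none of the 26 without the block (0.0139% of all genes were called lower), with 2 at an unadjusted p under 0.05, and 3 with the block (1.28%). Without litter 3 it again called none without the block (0.00696% of all genes), with 2 at an unadjusted p under 0.05, and 6 with it (3.84%).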

How the data were processed

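RNA-seq was made from 3 cKO and 3 Ctrl libraries. The submitters' processing notes name RSEM 1.3.1, Bowtie2 2.4.5, HISAT2 2.2.1 and the build GRCm38 (mm10); their roles, and whether the kit keeps strand, are not given in the sources used here. The authors deposited estimated counts per gene (88.4% to 88.6% of values per library had no fractional part), TPM and FPKM. The FPKM values the authors deposited served only to compare libraries, and the deposited TPM only for levels between genes. No column was left without a sample.

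Counts were rounded, filtered with filterByExpr (3633 genes removed), scaled by TMM and tested two-sided in edgeR 4.0.16 (R 4.3.3) by its robust quasi-likelihood F test, p-values being adjusted after Benjamini and Hochberg over all 14338 genes. The script was tested on simulated data. Exact permutation of 3 against 3 libraries cannot give a p below 0.1, so single values were not permuted. The comparison without the block was the main design. Replicate numbers were taken as litters, since controls are littermates and same-numbered samples share the first part of their code; across genes, libraries of 1 number deviated together from the means of their groups (r 0.328, 0.205 and 0.184). With the block the biological coefficient of variation went from 7.79% to 4.94%. A second test scaled each library to its summed small-subunit counts.

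Members and lists were chosen with earlier results of these data known. Results of 4 of the 30 members are not reported here; the 30 enter the share of counts and the subunit total, and all other values of the set are over the other 26. Values in every library are given for members called with or without the block, the 3 highest and lowest by TPM and by fold change, and those called against the subunit; others in full are exceptions chosen after their values were seen (Rps28, Rps6 and Rps27 in CPM). From other lists, up to 4 genes called with the block are named, as far as they are reported here. Blocked models with other scalings, and models relative to the subunit without a litter, were added after seeing the data. DESeq2 1.42.0 and limma 3.58.1 gave alternatives. Coding lengths are from GENCODE M21 and gene positions from RefSeq.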

Additional observations from a re-analysis of the deposited data

How the results depend on the processing

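The number of members called was 0 with DESeq2 size factors, library totals, limma-voom and both other filters, 1 with the DESeq2 test, and 8 with the replicate block. It ranged from 0 to 3 on leaving out a single library, with 3 only without cKO replicate 1. Without litter 1, 2 or 3 it was 11, 0 and 0, and with the block and without litter 1, 2 or 3 it was 13, 3 and 6. With the block it was 7 on library totals and 8 on DESeq2 size factors. The share of all genes called lower with the block was 3.56% on TMM and was not counted on these scalings. The median log2 fold change lay between -0.22 (without cKO replicate 1) and -0.07 on leaving out a library, and between -0.15 and -0.08 elsewhere. Relative to the small-subunit total, 3 members were called with the block, 3 on scaling it to the large subunit and, with the block, 5, 0 and 4 when litter 1, 2 or 3 was left out. With the block and all litters, 0.886% of all genes were called lower and 35.8% higher on the small-subunit scale. Shares were not counted on the large-subunit scale or without a litter. The causes were not tested.

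Of 546 member values under 21 alternatives, 459 kept their direction and call, 60 kept the direction and were called, and 27 turned sign, in 10 members with small differences. On leaving out single libraries the log2 fold change ran from -0.28 to 0.06 for Rps28, -0.23 to 0.05 for Rps10, -0.18 to 0.08 for Rps26, -0.14 to 0.03 for Rps20, -0.17 to 0.00 for Rps27a, -0.17 to 0.04 for Rps13, -0.16 to 0.01 for Rps25, -0.02 to 0.13 for Rps24, -0.02 to 0.23 for the paralog Rps27l and -1.04 to 0.31 for Rps27rt. Without litter 3 it was 0.06 for Rps28 (0.05 with the block), 0.01 for Rps29, Rps20 and Rps25 and 0.00 for Rps23, each with or without the block. Without litter 1 it was -0.02 for Rps27l, with or without the block. Without litter 2 it was 0.02 for Rps13 (0.01 with the block).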
